A study of Homo sapiens with 6 samples.

Results

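The genes described here are 10 components and direct outputs of bone morphogenetic protein (BMP) signalling: the ligands BMP2, BMP4 and BMP7, the inhibitors of DNA binding ID1, ID2, ID3 and ID4, the inhibitory SMADs SMAD6 and SMAD7, and the pseudoreceptor BAMBI. They were taken by symbol from the platform annotation, which named them in 23 of 54613 probe sets (groups of probes that together read 1 transcript), 1 of these shared with another symbol. The brightest probe set stood for each gene, giving 10 of 19775 genes. The cells were HCT116, grown from a human colorectal carcinoma, and 6 Affymetrix arrays were read in 1 colour. In the CDK4/6 siRNA group, 3 arrays, cells had received 30 nM of an siRNA pool against CDK4 and 30 nM of an siRNA against CDK6. In the control siRNA group, 3 arrays, they had received 30 nM of a non-targeting pool and 30 nM of a negative control siRNA. Both groups got the same lipid reagent and fresh medium after 24 h, and RNA was taken at 96 h. The labels call the arrays biological replicates without saying how the cultures were separated, so a p-value speaks only of how these arrays vary. HCT116 is 1 line and is known to make no working TGFBR2, the type II receptor for TGF-beta.

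BMP ligands are secreted dimers that bring together type I and type II receptor kinases, which phosphorylate SMAD1, SMAD5 and SMAD9. These join SMAD4, enter the nucleus and switch on target genes, of which the ID genes and SMAD6 are among the most direct. ID proteins hold a helix-loop-helix but no DNA-binding region and keep E proteins, the partners of tissue-specific helix-loop-helix factors, off DNA. SMAD6, SMAD7 and BAMBI feed back on the receptors. In the colon, BMP signalling is known for opposing stem cell renewal and favouring differentiation along the crypt.

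The 250 bases before the transcription start are shown for the 4 genes whose level changed and for SMAD6, which lay at the threshold, to show which SMAD-type elements lie at the start of each. Sequences are from RefSeq, build GRCh38.p14, 5′ to 3′ on the gene's own strand. The table of promoters held 8 of the 10 genes, with 12 starts, and BMP2 and BMP7 are named only. Capitals mark, on either strand, GTCT (the short SMAD binding element, read as AGAC on the other strand), GGCGCC (a GC-rich element bound by SMAD1 and SMAD5), CACGTG (the E-box bound by MYC with MAX) and TATAAA.
BMP4, start 1 of 3 (chr14:53955051-53955300, minus strand): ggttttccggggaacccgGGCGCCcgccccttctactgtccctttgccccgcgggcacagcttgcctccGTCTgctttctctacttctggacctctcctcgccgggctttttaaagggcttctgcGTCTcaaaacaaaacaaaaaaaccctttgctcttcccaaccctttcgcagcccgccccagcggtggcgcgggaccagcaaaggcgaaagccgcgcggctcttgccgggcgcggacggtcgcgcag
BMP4, start 3 of 3 (chr14:53953396-53953645, minus strand): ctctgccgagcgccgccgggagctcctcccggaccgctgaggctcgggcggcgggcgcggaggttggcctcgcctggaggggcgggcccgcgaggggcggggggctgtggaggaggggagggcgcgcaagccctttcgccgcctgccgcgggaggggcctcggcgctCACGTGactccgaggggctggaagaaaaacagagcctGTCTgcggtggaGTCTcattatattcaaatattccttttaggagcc
ID1 (chr20:31605039-31605288, plus strand): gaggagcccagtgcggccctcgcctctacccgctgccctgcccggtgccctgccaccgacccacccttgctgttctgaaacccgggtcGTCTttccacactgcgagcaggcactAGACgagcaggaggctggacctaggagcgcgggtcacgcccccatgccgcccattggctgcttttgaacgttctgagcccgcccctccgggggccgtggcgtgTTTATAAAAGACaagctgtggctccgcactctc
ID3 (chr1:23559502-23559751, minus strand): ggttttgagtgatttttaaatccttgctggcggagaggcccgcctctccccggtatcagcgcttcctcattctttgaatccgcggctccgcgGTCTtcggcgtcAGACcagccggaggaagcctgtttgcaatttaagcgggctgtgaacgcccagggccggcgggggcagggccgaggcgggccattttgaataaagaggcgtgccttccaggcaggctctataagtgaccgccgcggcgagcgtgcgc
SMAD6 (chr15:66701986-66702235, plus strand): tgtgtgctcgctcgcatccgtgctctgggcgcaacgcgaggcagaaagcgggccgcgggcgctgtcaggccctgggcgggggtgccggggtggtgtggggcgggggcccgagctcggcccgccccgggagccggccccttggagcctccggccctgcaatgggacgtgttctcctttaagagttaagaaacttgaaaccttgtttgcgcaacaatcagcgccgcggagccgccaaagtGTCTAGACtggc
BAMBI (chr10:28677271-28677520, plus strand): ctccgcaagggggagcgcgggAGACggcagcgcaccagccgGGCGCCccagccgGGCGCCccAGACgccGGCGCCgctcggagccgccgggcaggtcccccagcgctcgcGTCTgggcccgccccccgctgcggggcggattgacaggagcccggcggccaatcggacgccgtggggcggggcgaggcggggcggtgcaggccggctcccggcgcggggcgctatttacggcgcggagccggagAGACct
BAMBI held 3 copies of GGCGCC, which begin 209, 196 and 181 bases before the start, and 4 of GTCT. BMP4 start 1 held 1 copy of GGCGCC, 232 bases upstream, and start 3 held 1 copy of CACGTG, 83 bases upstream. BMP4 start 2, not shown, held 0 matches to any of the elements searched. In SMAD6, GTCT and its reverse complement stand back to back, from 12 and 8 bases upstream. ID1 held GTCT 3 times and ID3 2 times, and ID1 also held TATAAA on each strand, the matches overlapping at 33 and 31 bases upstream. Of 35116 promoters of the same length, 77.5% held GTCT, 16.4% GGCGCC, 6.34% CACGTG and 10.7% TATAAA, so a match to GTCT is the common case. Of the genes not shown, ID2 held GTCT 2 times, ID4 1 time and SMAD7 4, 5 and 1 times at starts 1 to 3. These held 0 copies of GGCGCC. The BAMBI stretch was 81.2% G and C, against a median of 58.0% over all promoters, and GGCGCC is made of these letters only. The E-box CANNTG, found in 61.8% of promoters, takes in CACGTG and was otherwise matched once in the SMAD7 starts 1 and 3 and in ID2 and ID4. The form CAGNTG, in 42.5% of promoters, made up the ID2 and ID4 matches and that of SMAD7 start 3. These are matches of letters and not measured binding.

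Expression is given as log2 RMA values, whose array medians ran from 5.36 to 5.39. Arrays of the same group correlated at 0.998 across genes, and those of different groups at 0.991 to 0.994. CDK6 fell to 34.0% and CDK4 to 62.2% of the control level, with no overlap between groups. Across all genes, limma called 26.8% changed at an adjusted p under 0.05, 14.0% higher and 12.9% lower, and the median log2 fold change was -0.0011. Spike-in RNAs added at hybridisation read 0.11 lower in the CDK4/6 siRNA arrays (10.25 against 10.15), and scaling arrays to them moved the median of all genes to 0.11. Changes are therefore read against all genes on the array, and a change in the share of cells that use a gene cannot be told apart from a change in each cell.

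Of the 10 genes, 3 rose and 1 fell, against 26.8% called among all genes, and the other 6 did not pass. BMP4 rose most, 1.53-fold, followed by BAMBI at 1.39-fold and ID3 at 1.35-fold, and ID1 fell to 82.3% of the control level. The groups did not overlap in 5 of the 10, these 4 and SMAD6, against 40.9% of all genes. Of these, 3 were higher and 2 lower, against 20.6% and 20.3% of all genes. The median of the 10 log2 fold changes was 0.0075. A log2 fold change here is the CDK4/6 siRNA mean minus the control siRNA mean, with n = 3 arrays per group.

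**Figure D1:**
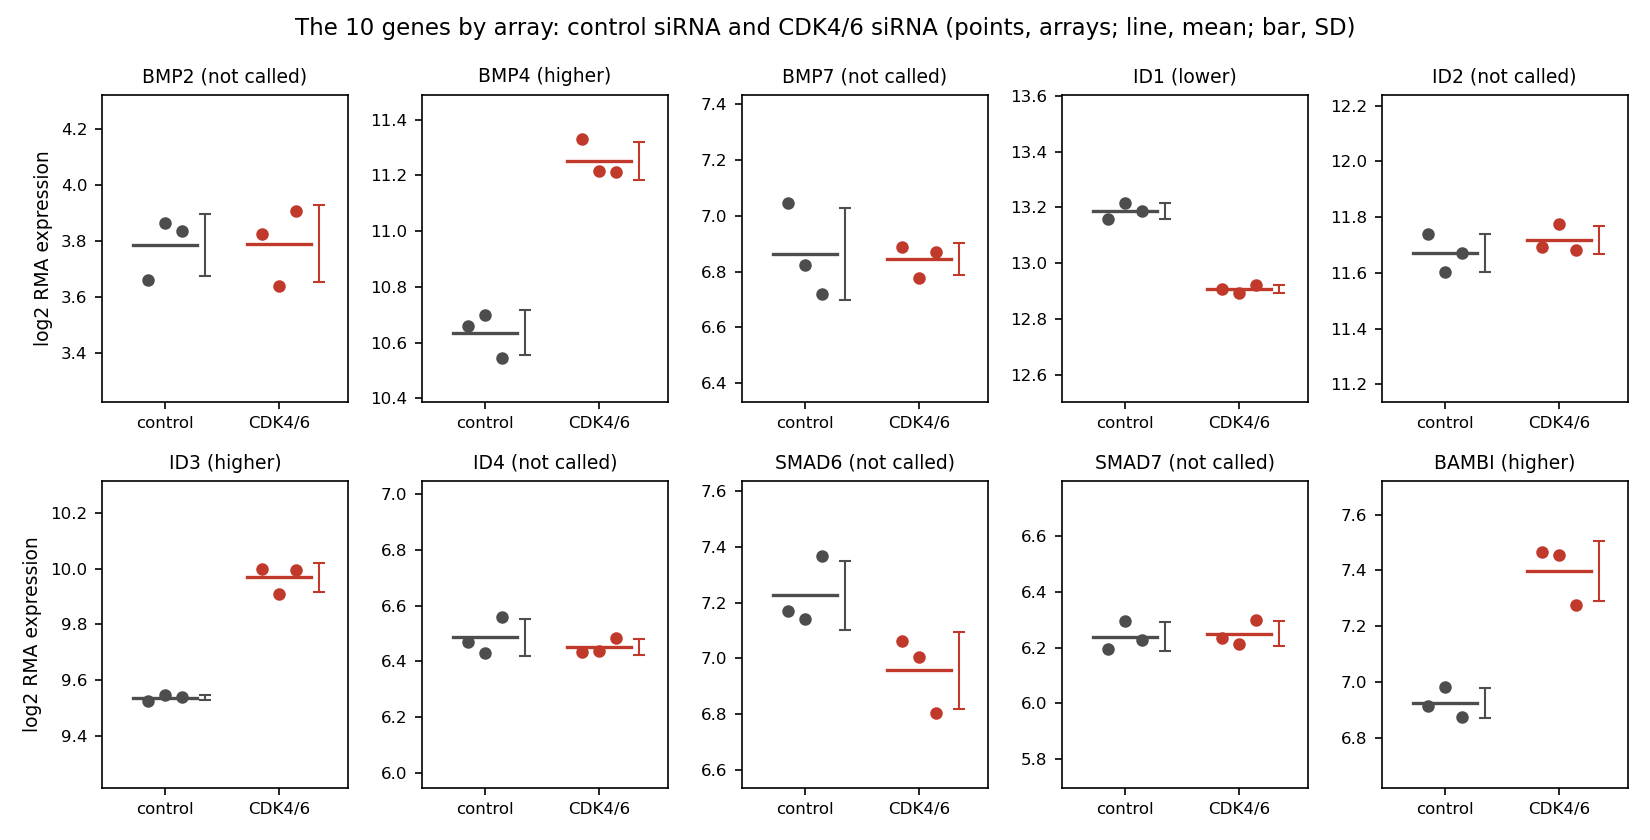
Log2 RMA expression (vertical axis, the same span of 1.1 in every panel) of the 10 genes in each array, control siRNA in grey and CDK4/6 siRNA in red; points are arrays, lines are means and bars are SD, with 3 arrays per group. The groups stand apart for BMP4, ID3 and BAMBI, which are higher, and for ID1 and SMAD6, which are lower, and they overlap in the other panels.

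Among the ligands, only BMP4 of the 3 passed the test. BMP4, which signals through the receptors BMPR1A and BMPR2, read 10.66, 10.70 and 10.55 in control replicates 1 to 3 and 11.33, 11.21 and 11.21 in CDK4/6 siRNA replicates 1 to 3. Every CDK4/6 siRNA array was above every control array. The log2 fold change was 0.62 (SE 0.065, 95% interval 0.47 to 0.76, limma adjusted p = 0.000243), from 10.64 ± 0.080 to 11.25 ± 0.068 (SD). BMP4 rests on 1 probe set, and with any 1 array left out the change stayed between 0.57 and 0.65.

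BMP2, a close relative of BMP4, was dim on both of its probe sets. It read 3.66, 3.86 and 3.84 in the controls and 3.83, 3.64 and 3.91 in the CDK4/6 siRNA arrays. The groups overlapped, and the difference was 0.0046 (95% interval -0.19 to 0.20, limma adjusted p = 0.979). BMP7, which belongs to another branch of the family, read 7.05, 6.82 and 6.72 in the controls against 6.89, 6.78 and 6.87. Its difference was -0.019 (95% interval -0.21 to 0.17, limma adjusted p = 0.913), with control replicate 1 the highest of the 6 arrays. The 3 other BMP7 probe sets gave 0.15, 0.10 and 0.030 and did not pass. The BMP2 interval carries little weight, since probe sets this dim compress changes.

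The ID genes went different ways. ID1 read 13.16, 13.21 and 13.19 in the controls and 12.91, 12.89 and 12.92 in the CDK4/6 siRNA arrays. The arrays of each group lay close together and the groups were apart. ID1 fell by 0.28 (SE 0.052, 95% interval -0.40 to -0.16, limma adjusted p = 0.00367). Under spike-in scaling the fall was 0.17 and no longer passed (limma adjusted p = 0.0647).

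ID3 moved the opposite way. It read 9.53, 9.55 and 9.54 in the controls and 10.00, 9.91 and 10.00 in the CDK4/6 siRNA arrays. The controls differed by less than the gap to the lowest CDK4/6 siRNA array. ID3 rose by 0.43 (SE 0.054, 95% interval 0.31 to 0.55, limma adjusted p = 0.000556), from 9.54 ± 0.0098 to 9.97 ± 0.052 (SD).

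The difference between ID3 and ID1 within an array does not change when all log2 values of that array are moved by the same amount. Other processing can change it, and under quantile normalization ID3 gave 0.41 and ID1 -0.29. ID3 minus ID1 was -3.63, -3.67 and -3.65 in the controls and -2.91, -2.98 and -2.92 in the CDK4/6 siRNA arrays. The shift of the mean was 0.71. BMP4 minus ID1 shifted by 0.90 in the same way, from -2.55 ± 0.080 to -1.65 ± 0.069 (SD, n = 3 per group). These pairs were chosen for their opposite changes, so the shifts are a description with no test.

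ID2 did not pass on the probe set that stood for it. That probe set read 11.74, 11.60 and 11.67 in the controls and 11.69, 11.77 and 11.68 in the CDK4/6 siRNA arrays, a difference of 0.046 (95% interval -0.091 to 0.18, limma adjusted p = 0.655). A dimmer one, at a mean level of 9.94, gave -0.053. Another is annotated to ID2 together with ID2B, a pseudogene of it. On it every CDK4/6 siRNA array was lower than every control array, from 8.05 to 7.61 in the mean, a fall of 0.44 (SE 0.085, limma adjusted p = 0.00626 over all probe sets). The ID2 probe sets therefore disagree, and which transcripts the shared one reads was not tested.

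ID4 read 6.47, 6.43 and 6.56 in the controls and 6.43, 6.44 and 6.48 in the CDK4/6 siRNA arrays. Its groups overlapped, with a difference of -0.036 (95% interval -0.17 to 0.095, limma adjusted p = 0.723). Of its 4 other probe sets, the next brightest gave -0.15 with groups that did not overlap and did not pass (limma adjusted p = 0.169), and the 3 dim ones gave 0.071, 0.037 and -0.13.

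Of the 3 feedback inhibitors, BAMBI alone passed the test. BAMBI, a receptor-like protein without a kinase domain that blocks receptor pairing, read 6.91, 6.98 and 6.87 in the controls and 7.47, 7.46 and 7.27 in the CDK4/6 siRNA arrays. Replicate 3 was the lowest of its group on both sides and the groups stood apart. BAMBI rose by 0.48 (SE 0.069, 95% interval 0.32 to 0.63, limma adjusted p = 0.00107). It kept its call under all 16 alternative settings, between 0.43 and 0.58.

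SMAD6, which preferentially restrains the BMP branch, read 7.17, 7.14 and 7.37 in the controls and 7.06, 7.01 and 6.80 in the CDK4/6 siRNA arrays. All CDK4/6 siRNA arrays were below all controls, by a narrow margin except for replicate 3 of each group, which lay farthest out. The difference was -0.27 (SE 0.088, 95% interval -0.47 to -0.070), and the limma adjusted p of 0.0509 just missed the threshold. Of 16 alternative settings 5 brought it past the threshold, with adjusted p from 0.0286 to 0.861 over all of them. Its 3 dimmer probe sets gave 0.055, -0.11 and 0.030 with overlapping groups. BAMBI minus SMAD6 went from -0.30 ± 0.17 to 0.44 ± 0.035 (SD), a shift of 0.74 with n = 3 per group, a pair also chosen for its opposite changes and not tested.

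SMAD7, which restrains both the BMP and TGF-beta branches, read 6.19, 6.30 and 6.23 in the controls and 6.23, 6.21 and 6.30 in the CDK4/6 siRNA arrays. The groups overlapped almost fully, with a difference of 0.010 (95% interval -0.12 to 0.14, limma adjusted p = 0.927). SMAD7 rests on 1 probe set, at a mean level of 6.24 against a median of 6.47 over all genes. How far changes are compressed at this level was not tested.

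**Figure D2:**
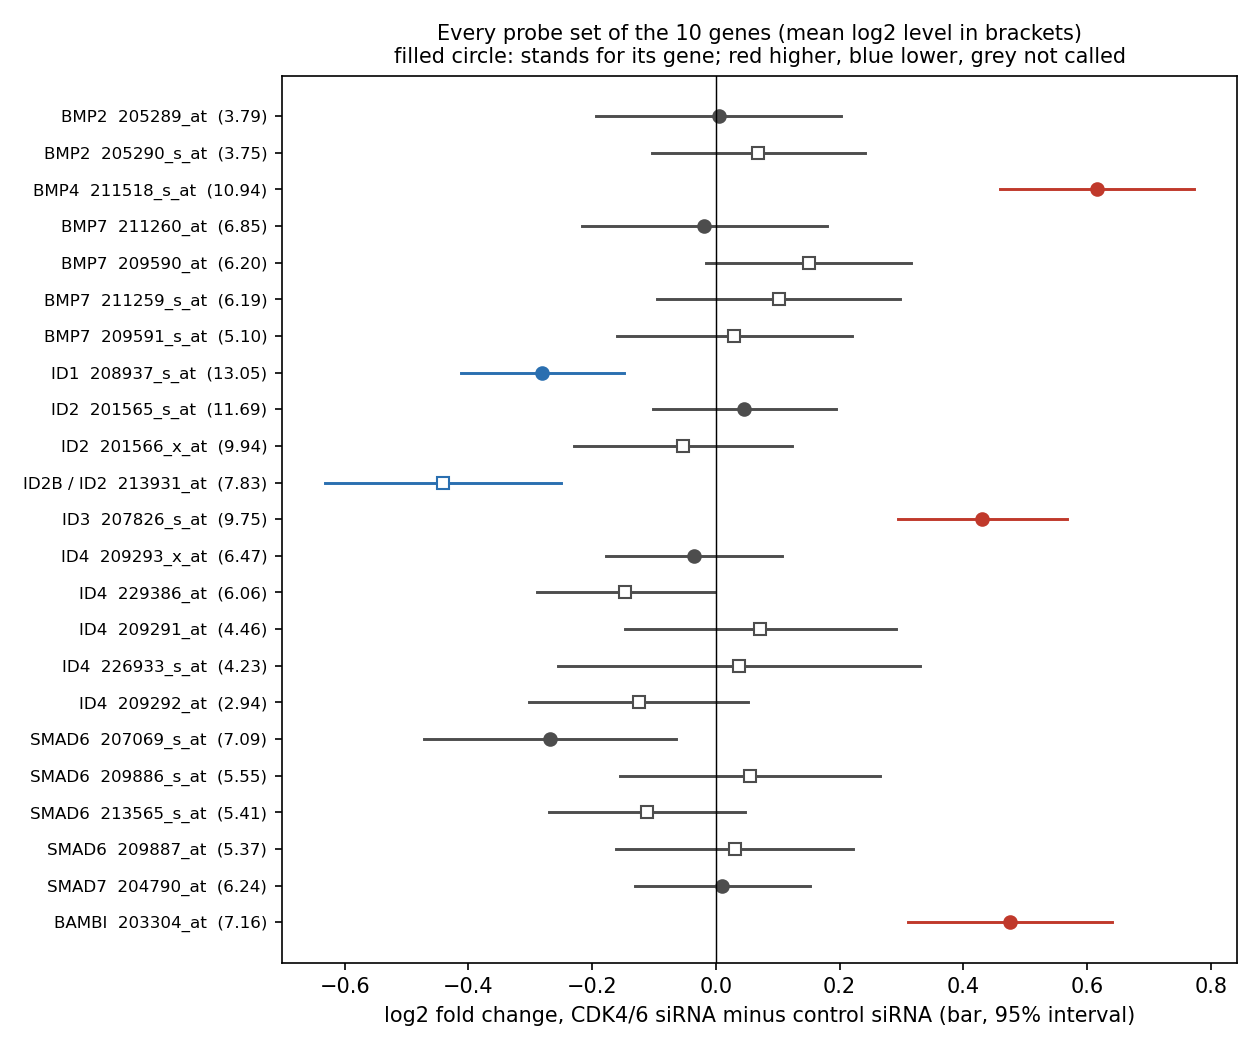
Log2 fold change, CDK4/6 siRNA minus control siRNA (horizontal axis), with its 95% interval for all 23 probe sets of the 10 genes; filled circles stand for their gene, open squares are the others, red is higher, blue lower and grey not called. BMP4, ID3 and BAMBI lie to the right of 0, and ID1 and the probe set shared by ID2 and ID2B lie to the left.

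Of the 13 probe sets that did not stand for a gene, 1 passed, the one shared with ID2B, against 17.0% of all probe sets called and 8.17% called lower. BMP4, ID1, ID3, SMAD7 and BAMBI have no second probe set, so for these no agreement between probes can be shown. The names of the BMP4, ID1 and ID3 probe sets carry a suffix that marks probes shared between transcripts. With only probe sets of a plain name, these 3 genes drop out, SMAD6 gave 0.030 and ID2 turned to -0.44 on its shared probe set.

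**Figure D3:**
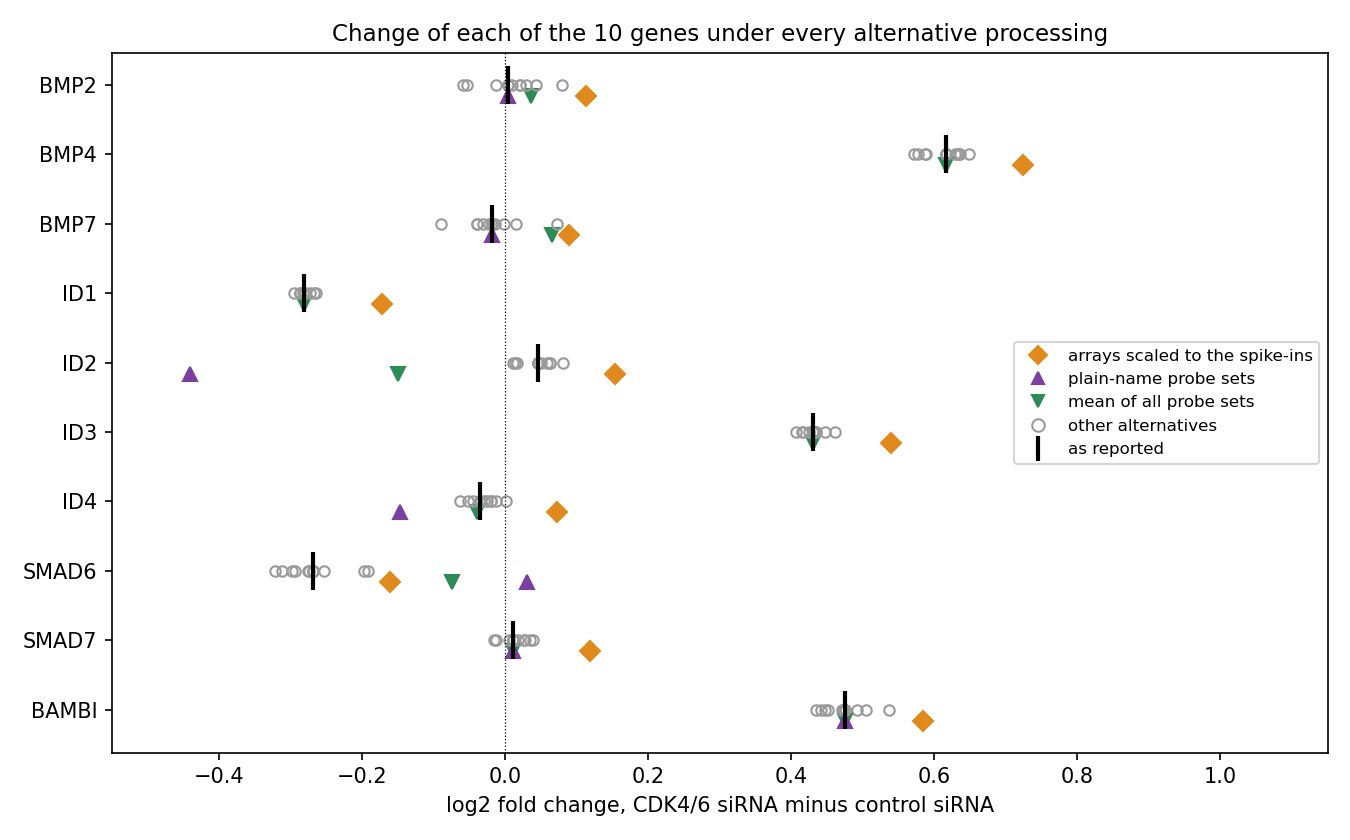
Log2 fold change of the 10 genes (horizontal axis) as reported, black bars, and under each alternative processing, symbols. The 4 called genes keep their side of 0 under every alternative that could test them, scaling to the spike-ins moves all 10 to the right by 0.11, and ID2 and SMAD6 depend on the probe set used.

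The rest of the pathway was described from 7 lists of genes. Of 106 measured genes, 26 fell and 9 rose, 33.0% against 26.8% of all genes, with a median log2 fold change of -0.054. Spike-in scaling moves every gene by the same 0.11, and under it 9 of the 106 were lower and 15 higher, beside 1320 lower (6.68%) and 4731 higher (23.9%) of all 19775 genes. Counts that follow are for the values as deposited, with the spike-in count wherever it differs.

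Of 26 other ligands of the BMP, GDF, activin and TGF-beta families, 5 fell and 0 rose (1 and 2 under spike-in scaling), or 19.2% against 26.8% of all genes, with a list median of -0.033. At an unadjusted limma p under 0.05, 1 was higher and 6 lower, where 18.4% of all genes were higher and 17.8% lower. Of the 26, 18 had a mean level under 6. INHBB, a subunit of activin B, fell by 0.39 and GDF15, a stress-induced hormone, by 0.30. MSTN, the muscle growth inhibitor myostatin, fell by 0.24 on a very dim probe set with a mean level of 3.05, and BMP8B fell by 0.22. The limma adjusted p of these 4 ran from 0.00452 to 0.0151. MSTN, GDF15 and BMP8B lost their calls under spike-in scaling, and of 3 probe sets each of GDF15 and BMP8B only 1 passed. BMP8B also lost its call without control replicate 2 (-0.20) and without CDK4/6 siRNA replicate 3 (-0.22).

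Secreted antagonists were mostly dim, 11 of the 17 measured having a mean level under 6. Of the 17, 0 rose and 3 fell (1 and 0 under spike-in scaling), or 17.6% against 26.8% of all genes, with a median of -0.036. At an unadjusted limma p under 0.05, 1 was higher and 5 lower, beside 18.4% and 17.8% of all genes. DAND5, an inhibitor of Nodal, fell by 0.36 on a dim probe set, TWSG1, a modulator that binds BMP with chordin, by 0.26, and CRIM1, which binds BMPs at the membrane, by 0.20. CHRD, the antagonist chordin, gave -0.22 and did not pass (limma adjusted p = 0.0629), though it did without control replicate 3 (-0.28). CRIM1 was the weakest of these calls (limma adjusted p = 0.0419), and none of its 3 probe sets passed over all probe sets. TWSG1 and CRIM1 lost their calls without control replicate 1 (-0.26 and -0.21), without control replicate 3 (-0.22 and -0.15), without CDK4/6 siRNA replicate 1 (both -0.21) and without CDK4/6 siRNA replicate 3 (-0.27 and -0.19), and CRIM1 also without CDK4/6 siRNA replicate 2 (-0.21).

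Receptors were lower more often than higher in the deposited values. Of 16 measured, 6 fell and 1 rose (3 and 2 under spike-in scaling), with a median of -0.095. That is 43.8% called in the deposited values, against 26.8% of all genes. TGFBR3, a coreceptor known as betaglycan that also binds BMPs, fell by 0.60 to 66.1% of the control level, and its second probe set fell by 0.48. ACVR1C, a type I receptor for Nodal and activins, fell by 0.49 on a dim probe set with a mean level of 5.47. Its other probe set, dimmer still at 3.75, fell by 0.41. ACVR2B, a type II receptor, fell by 0.33, while its 2 other probe sets gave -0.24 and -0.23 and did not pass. TGFBR1, the type I receptor for TGF-beta, fell by 0.33 on its brightest probe set and by 0.39 on another, while a dim one rose by 0.25. The TGFBR1 call was lost under spike-in scaling (-0.22) and when its 3 probe sets were averaged (-0.16). Of the BMP receptors proper, the type I receptor ACVR1 fell by 0.29, a call lost under spike-in scaling (-0.18). The type II receptor BMPR2 was the gene that rose, by 0.22 (limma adjusted p = 0.0153). The BMPR2 call was lost without control replicate 2 (0.21) and without CDK4/6 siRNA replicate 1 (0.20), and the mean of its probe sets gave -0.074. BMPR1A was not analysed here.

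The SMADs that carry the signal were split. Of 6, 2 fell and 1 rose (1 and 1 under spike-in scaling), with a median of -0.11. That is 50.0% called in the deposited values, against 26.8% of all genes. The list was bright, with a median level of 9.37 against 6.47 for all genes. SMAD9, one of the 3 SMADs phosphorylated by BMP receptors, fell by 0.63 (SE 0.072, limma adjusted p = 0.000356), to 64.6% of the control level, though a dim second probe set gave 0.026. SMAD5, another of them, rose by 0.30 (SE 0.058, limma adjusted p = 0.00476), on 2 of its 5 probe sets. With the mean of all 5 SMAD5 gave 0.081 and lost its call (limma adjusted p = 0.363). SMAD4, the shared partner, fell by 0.32 (SE 0.076, limma adjusted p = 0.0134), on 2 of its 5 probe sets. Without control replicate 3 the SMAD4 call was lost (-0.27, limma adjusted p = 0.0518), and it was also lost under spike-in scaling. SMAD3, which carries TGF-beta signals, gave -0.17 and did not pass (limma adjusted p = 0.0652), though it did in 4 of 16 alternative settings. A dim SMAD3 probe set rose by 0.26 (limma adjusted p = 0.0472 over all probe sets), and the others gave -0.086 and -0.0052 and did not pass.

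Intracellular regulators of SMADs were lower more often than higher in the deposited values. Of 17 measured, 8 fell and 2 rose, or 58.8% against 26.8% of all genes, with a median of -0.19. But under spike-in scaling 2 fell and 4 rose, beside 6.68% lower and 23.9% higher of all genes. This list was also bright, with a median level of 9.40 against 6.47 for all genes. With genes under a mean of 4.80 left out, 38.2% of the genes kept were called, and in this list 8 fell and 3 rose. SKIL, a corepressor of SMADs that is itself a TGF-beta target, fell by 0.70 (SE 0.073, limma adjusted p = 0.000244), to 61.5% of the control level, and 3 of its 5 probe sets fell. TOB1, an antiproliferative protein that binds SMADs, fell by 0.39, ERBIN by 0.29 and RNF111, a ubiquitin ligase that removes SMAD7 and SKIL proteins, by 0.27. SKIL and TOB1 kept their calls under spike-in scaling, at -0.59 and -0.28, while ERBIN and RNF111 did not.

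By the brightest probe set, other genes known as BMP-SMAD targets gave the 2 largest rises among the 106 pathway genes and the 10 described above. Of 16 measured, 5 rose and 2 fell, with a median of 0.058, and the same counts were found under spike-in scaling. That is 43.8% called, against 26.8% of all genes in the deposited values. MSX2, a homeobox factor, rose by 1.00 (SE 0.069, limma adjusted p = 5.33e-05), 2.01-fold. Of its 3 probe sets a second rose by 0.39, and a dim one, the only one with a plain name, gave -0.067. RUNX2, a bone-forming transcription factor, rose by 0.88 (SE 0.074, limma adjusted p = 0.000101), 1.84-fold, and of its 6 probe sets 2 rose. GATA2 rose by 0.53, on 2 of its 3 probe sets. JUNB, an AP-1 factor that also answers growth factors, fell by 0.55 (SE 0.063, limma adjusted p = 0.000369). With the mean of all its probe sets the RUNX2 rise was 0.19, that of MSX2 0.44 and that of GATA2 0.31. These lie below the 0.62 of BMP4 on its 1 probe set.

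The list of E proteins, which ID proteins bind, and their helix-loop-helix partners was mostly dim. Of the 8 measured, 6 had a mean level under 6, where changes are compressed. The E proteins TCF3 and TCF12 were bright, at mean levels of 10.07 and 9.56, and TCF3 gave -0.0034 (limma adjusted p = 0.978). Of the 8, 0 rose and 0 fell at a limma adjusted p under 0.05, beside 26.8% of all genes called, with a median of 0.013. At an unadjusted limma p under 0.05 the counts were also 0 and 0, where 18.4% of all genes were higher and 17.8% lower. The smallest adjusted p were those of TCF12 (-0.11, limma adjusted p = 0.188), ATOH1 (0.087, 0.422), TCF4 (0.12, 0.432) and MSC (0.089, 0.532).

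**Figure D4:**
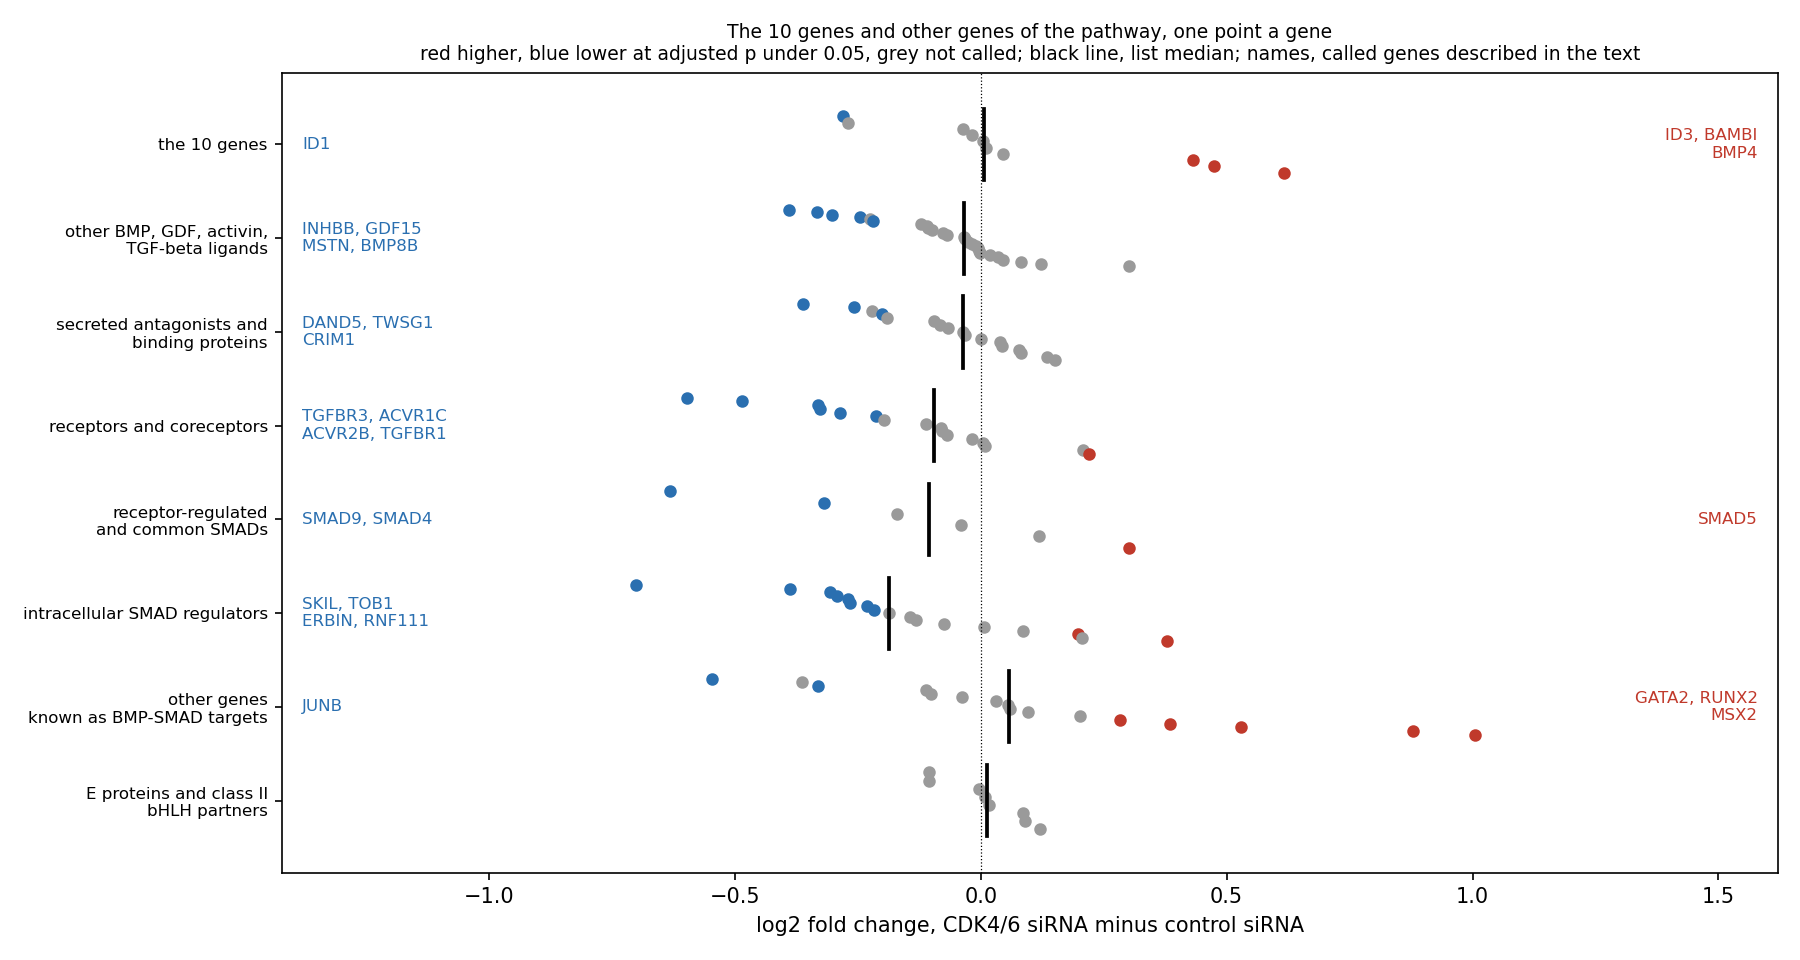
Log2 fold change, CDK4/6 siRNA minus control siRNA (horizontal axis), of the 10 genes and the 7 pathway lists, 1 point a gene; red is higher, blue lower and grey not called, and black lines are list medians. Among receptors 6 of 16 points are blue and 1 is red, among intracellular SMAD regulators 8 of 17 are blue and 2 red, the largest rises are MSX2 and RUNX2, and no gene of the helix-loop-helix list is called. Of all genes, 26.8% are called.

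The labelled cell type was checked against its markers. The epithelial genes EPCAM, KRT8, KRT18, KRT19 and CDH1 had control means of 12.80, 11.50, 13.02, 13.16 and 10.96, while the intestinal genes VIL1 and CDX2 were at 5.02 and 5.57. Of 7 epithelial and intestinal markers 2 rose and 1 fell, where 26.8% of all genes were called. KRT8 rose by 0.59 and KRT18 by 0.51, CDH1 fell by 0.54, and EPCAM (-0.059) and KRT19 (-0.063) did not pass. The summed linear level of the 7 was 28890 to 30241 in the controls and 32708 to 33582 in the CDK4/6 siRNA arrays. Such a sum weighs the brightest genes most. Of 7 fibroblast markers 1 fell, COL1A1 by 0.49, with sums of 453 to 480 and 370 to 393. Of 5 endothelial markers 0 changed at an adjusted or unadjusted limma p under 0.05, with sums of 163 to 187 and 168 to 176, and of 5 leukocyte markers 1 fell, ITGAM by 0.23, with sums of 143 to 148 and 129 to 140. Apart from COL1A1 and PECAM1, markers of the 3 other cell types had mean levels under 6. The part of these shifts in the changes above was not tested.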

How the data were processed

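Total RNA of 6 HCT116 cultures was hybridised to single-channel arrays, 3 per group. The deposited values are log2 expression per probe set, and the submitters' processing notes name RMA, which corrects background, equalises distributions between arrays and summarises probes. Sources used here do not give its version. Because distributions are equalised, a shift of all transcripts at once is not visible, and changes of dim probe sets are compressed. The number of arrays limits the precision.

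Of 54675 probe sets, 62 array controls were left out. Probe sets with 1 symbol, 41091 in all, and every probe set naming one of the 10 genes were mapped to genes. The brightest over the 6 arrays stood for each of 19775 genes, with no filter. limma 3.58.1 in R 4.3.3 (lmFit, eBayes, group as the only term) gave fold changes, adjusted by the Benjamini-Hochberg method over all genes or, for second probe sets, over all 54613 probe sets. The fit was tested on simulated data. Named pathway genes are the 4 with the smallest adjusted p of each list, plus ACVR1, BMPR2 and TCF3, which were added after their values were seen. The 10 genes and the lists were chosen with earlier results of these data known. A comparison of protein sequences was not made. Figures were drawn with matplotlib 3.10.9.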

Additional observations from a re-analysis of the deposited data

How the results depend on the processing

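BMP4, ID3 and BAMBI kept their direction and call under every alternative that could test them, and ID1 under 14 of 15. Scaled to the spike-ins, 0 of the 10 genes were lower, 4731 genes in all were higher and 1320 lower, and 15 pathway genes were higher and 9 lower. With SMAD6 added, 2 of the 10 were lower under quantile normalization, with trend and robust options and with array weights. Of all genes, 13.7%, 14.4% and 13.6% were lower under these. Leaving out the dimmest genes, those under a mean of 4.80, drops BMP2. Of the 9 left 2 were lower, SMAD6 among them, beside 18.5% of the genes kept. With 1 array left out, 1 to 2 of the 10 were lower, beside 10.1% to 11.2% of all genes. The 2 were found without CDK4/6 siRNA replicate 1, where 10.8% of all genes were lower. On plain-name probe sets 7 of the 10 could be tested, since BMP4, ID1 and ID3 have none. Of the 7, 1 was higher and 1 lower, beside 12.1% and 10.7% of the genes tested. ID2 (-0.44), SMAD6 (0.030) and MSX2 (-0.067) turned. BMPR2 turned to -0.074 with the mean of all probe sets. At a threshold of 0.01, 1803 genes were higher and 1523 lower, and 16 pathway genes were lower. Deviations of arrays with the same replicate number correlated at -0.010, -0.12 and -0.0066, and those with different numbers at -0.070 to 0.091. The numbers thus show no pairing by this measure. It cannot exclude one, since deviations within a group of 3 are tied together. With the replicate block 2481 genes were higher and 2257 lower, 3 and 1 of the 10, and of the named genes CRIM1 (-0.20) lost its call.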
